A study of Mus musculus with 2 samples.

Results

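Wide DNase-accessible peaks were examined in urinary bladder of B6CASTF1/J mice, adult females aged 18 to 20 months. The strain is the hybrid offspring of C57BL/6 and CAST parents. DNase-seq maps the stretches of chromatin that the enzyme DNase I can cut. The series holds 1 group of 2 libraries, biological replicates 1 and 2, with no treatment, genotype contrast or second tissue, and both tissue samples stand under 1 donor record. Whether they came from separate animals is not stated, so the spread between the libraries may be technical. The wide peaks were chosen by their own width. A member is a peak of 400 bp or more, on chromosomes 1 to 19 of the longer deposited list, that overlaps by at least 1 bp a peak of 400 bp or more in the other library. In replicate 1, 1167 of 82472 peaks met this rule (1.42%), and in replicate 2, 1183 of 109240 (1.08%). Joined where they overlapped, they formed 1107 regions. Width is therefore not a finding, and signal, false discovery rate and footprints come from the same cuts as the width. With 1 group there was no test, and all values below are descriptions.

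An accessible stretch of regulatory DNA usually replaces a nucleosome or a few, and proteins bound in it leave short protected gaps in the cut pattern, called footprints. Many mammalian promoters lie in CpG islands, which are rich in G and C and keep the CpG dinucleotides that most of the genome has lost through methylation and mutation. The bladder wall consists of a stretchable epithelium, the urothelium, over connective tissue with vessels and layers of smooth muscle.

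The sequences below show the range of base composition inside wide regions. They are the exon-free stretch nearest the centre of the region, at most 300 bases long, on the plus strand of mm10 and 5' to 3', and capitals mark CpG dinucleotides. The first set is from the widest promoter region of 5 gene lists, passing over a region without an exon-free stretch of at least 150 bases. The second set is from the widest regions over 10 kb from a coding TSS.
Klf4 promoter region, chr4:55531301-55531600: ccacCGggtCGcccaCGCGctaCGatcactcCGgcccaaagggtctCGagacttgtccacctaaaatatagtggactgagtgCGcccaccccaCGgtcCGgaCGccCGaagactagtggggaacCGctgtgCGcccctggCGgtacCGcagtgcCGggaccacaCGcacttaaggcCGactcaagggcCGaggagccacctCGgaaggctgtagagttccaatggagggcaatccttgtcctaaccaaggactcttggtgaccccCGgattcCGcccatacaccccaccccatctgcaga
Pparg promoter region, chr6:115361371-115361670: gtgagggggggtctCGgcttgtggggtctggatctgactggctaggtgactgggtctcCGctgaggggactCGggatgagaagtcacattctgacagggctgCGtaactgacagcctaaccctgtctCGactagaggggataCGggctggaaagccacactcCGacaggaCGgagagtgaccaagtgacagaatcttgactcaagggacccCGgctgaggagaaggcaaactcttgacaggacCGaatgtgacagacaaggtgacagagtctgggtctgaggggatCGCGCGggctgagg
Synm promoter region, chr7:67758586-67758818: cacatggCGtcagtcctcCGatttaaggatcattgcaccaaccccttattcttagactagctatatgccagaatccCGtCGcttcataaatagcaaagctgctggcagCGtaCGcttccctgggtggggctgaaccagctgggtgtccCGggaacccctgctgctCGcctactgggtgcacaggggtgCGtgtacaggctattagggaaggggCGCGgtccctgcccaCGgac
Hspa8 promoter region, chr9:40800821-40800983: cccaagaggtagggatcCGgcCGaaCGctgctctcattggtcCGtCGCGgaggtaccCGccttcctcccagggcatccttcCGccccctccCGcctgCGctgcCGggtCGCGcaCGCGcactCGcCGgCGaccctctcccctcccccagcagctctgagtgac
Rora promoter region, chr9:68653486-68653785: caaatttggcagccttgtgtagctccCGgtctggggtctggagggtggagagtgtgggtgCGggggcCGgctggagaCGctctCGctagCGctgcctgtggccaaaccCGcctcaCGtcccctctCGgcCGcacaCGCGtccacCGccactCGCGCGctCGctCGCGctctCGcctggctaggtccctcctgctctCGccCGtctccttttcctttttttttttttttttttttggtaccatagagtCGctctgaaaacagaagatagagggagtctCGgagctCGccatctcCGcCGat
Region near Pkdcc, chr17:83276351-83276650: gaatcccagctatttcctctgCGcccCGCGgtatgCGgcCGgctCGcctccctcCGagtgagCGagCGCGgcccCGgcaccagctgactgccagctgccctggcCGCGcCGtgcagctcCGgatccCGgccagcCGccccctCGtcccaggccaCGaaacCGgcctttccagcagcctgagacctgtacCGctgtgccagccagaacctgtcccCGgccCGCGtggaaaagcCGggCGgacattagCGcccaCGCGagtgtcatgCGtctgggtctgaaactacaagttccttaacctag
Region near Rnf7, chr9:96438139-96438438: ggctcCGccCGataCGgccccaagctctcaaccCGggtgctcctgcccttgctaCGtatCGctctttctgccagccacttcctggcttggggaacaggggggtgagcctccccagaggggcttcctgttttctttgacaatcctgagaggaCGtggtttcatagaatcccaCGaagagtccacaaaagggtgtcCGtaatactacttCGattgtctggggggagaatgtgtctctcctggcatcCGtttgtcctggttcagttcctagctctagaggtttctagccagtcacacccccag
Region near Neo1, chr9:59134390-59134689: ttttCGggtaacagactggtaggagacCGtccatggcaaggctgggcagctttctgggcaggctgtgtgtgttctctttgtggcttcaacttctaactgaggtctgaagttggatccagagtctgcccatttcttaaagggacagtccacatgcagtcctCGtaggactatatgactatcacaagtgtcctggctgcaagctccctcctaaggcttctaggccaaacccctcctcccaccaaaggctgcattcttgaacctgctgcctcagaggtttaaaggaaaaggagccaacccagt
The Rora stretch held 27 CpGs and the Pkdcc stretch 30, each in 300 bases. The Pparg stretch held 13 and the Neo1 stretch 3 in the same length. CpG-rich and CpG-poor DNA therefore both occur among the wide regions, and the stretch near Pkdcc held more CpGs than any promoter stretch of the same length shown here, although it lies far from the start of any coding gene.

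The median width of the wide peaks was 480 bp in each library, and the widest peaks measured 1240 bp in replicate 1 and 1176 bp in replicate 2. Of the members, 201 in replicate 1 and 242 in replicate 2 reached 600 bp, and 48 and 46 reached 800 bp. They held 3.68% of all peak bases in replicate 1 and 2.87% in replicate 2. Just inside the limit, the 156 members of 400 bp to under 420 bp in replicate 1 had a median signal of 1.22, and the 158 in replicate 2 had 1.20. Just outside it, the 648 peaks of 380 bp to under 400 bp in replicate 1 had a median signal of 1.19, and the 809 in replicate 2 had 0.990. For these peaks no wide partner was required, so the 2 sides are not alike. Without that requirement, peaks of 400 bp to under 500 bp had a median signal of 1.09 in replicate 1 and 0.981 in replicate 2. Signal is the deposited height of a peak, scaled by 1 factor per library whose meaning is not stated.

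**Figure D1:**
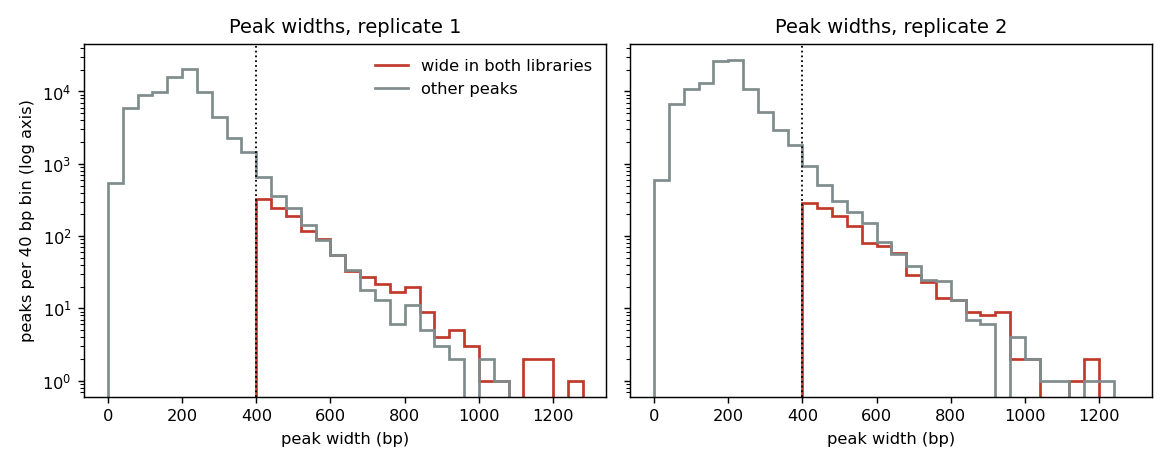
Number of peaks per 40 bp of width (log axis) in each library, for peaks wide in both libraries and for other peaks; the dotted line is the limit of 400 bp. Widths fall off without a break at the limit, and above it other peaks, wide in 1 library only, continue beside the members.

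Most peaks that were wide in a library were not wide in the other one. Of the peaks of 400 bp or more, 41.8% were members in replicate 1 and 33.1% in replicate 2. Of the 1626 peaks wide in replicate 1 only, 70.4% overlapped 1 narrower peak of replicate 2, 23.6% overlapped at least 2 and 5.97% overlapped none. Of the 2390 peaks wide in replicate 2 only, 68.2% overlapped 1 narrower peak of replicate 1, 18.5% overlapped at least 2 and 13.3% overlapped none. The deposited lists also hold peaks that overlap other peaks of their own list. This was so for 31.4% of members against 1.35% of other peaks in replicate 1, and for 35.3% of members against 1.56% of other peaks in replicate 2. In the shorter, stricter list 29.6% of the members of replicate 1 and 35.3% of those of replicate 2 met at least 2 peaks. Whether those peaks were separate or overlapped each other was not tested. Members of 400 bp or more in the shorter list as well made up 62.0% in replicate 1 and 64.4% in replicate 2.

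Widths of members were compared between the libraries. Members paired 1 to 1 between the libraries, 1110 pairs, differed in width by a median of 42 bp. Of these pairs, 34.1% lay within 20 bp, 73.2% within 100 bp, and the largest difference was 734 bp. Replicate 2 had the wider peak in 49.3% of pairs and replicate 1 in 37.9%. Across pairs, Pearson's r was 0.34 and Spearman's rho 0.35 for width, over a range that the rule cut off at the limit, and r was 0.96 for log2 signal, whose range was not cut, so the values cannot be set against each other. Regions are not independent replicates. Within the class, Spearman's rho of width and signal was -0.11 in replicate 1 and -0.16 in replicate 2.

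The wide peaks lay mainly at promoters. A promoter peak has its centre within 1 kb of a transcription start site (TSS) of a protein-coding gene in the GENCODE M21 annotation. That held for 72.3% ± 0.33 of wide peaks and for 28.9% ± 2.71 of other peaks (SD, n = 2 libraries). The difference was 43.4 ± 2.38 percentage points. By the rule every member overlaps a member of the other library, so the SD of wide peaks is small by construction. It does not measure the spread between replicates. Peaks wide in 1 library only, which are part of the other peaks, were at promoters in 61.4% ± 4.38. Members just inside the limit were at promoters in 69.2% in replicate 1 and 73.4% in replicate 2. Peaks just outside it, for which no wide partner was required, were at promoters in 60.6% and 53.6%. Without that requirement, peaks of 400 bp to under 500 bp stood at 65.1% and 60.6%. Most of the difference is therefore shared by peaks of similar width. Introns held 8.43% ± 0.04 of wide peaks and 30.8% ± 1.41 of other peaks. Intergenic DNA held 17.7% ± 0.13 of wide peaks and 37.0% ± 1.29 of other peaks, and exons held 1.66% ± 0.16 and 3.38% ± 0.02. Only 15.4% ± 0.03 of wide peaks were over 10 kb from a coding TSS, against 48.0% ± 2.13 of other peaks. DNA marked as repeats made up at least 50% of the peak in 0.21% ± 0.06 of wide peaks and in 3.12% ± 0.20 of other peaks. The mean share of such DNA per peak differed less. It was 6.52% in wide and 8.36% in other peaks of replicate 1, and 6.46% and 9.02% in replicate 2. The median share was higher in wide than in other peaks in both libraries, so wide peaks were not free of repeats.

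**Figure D2:**
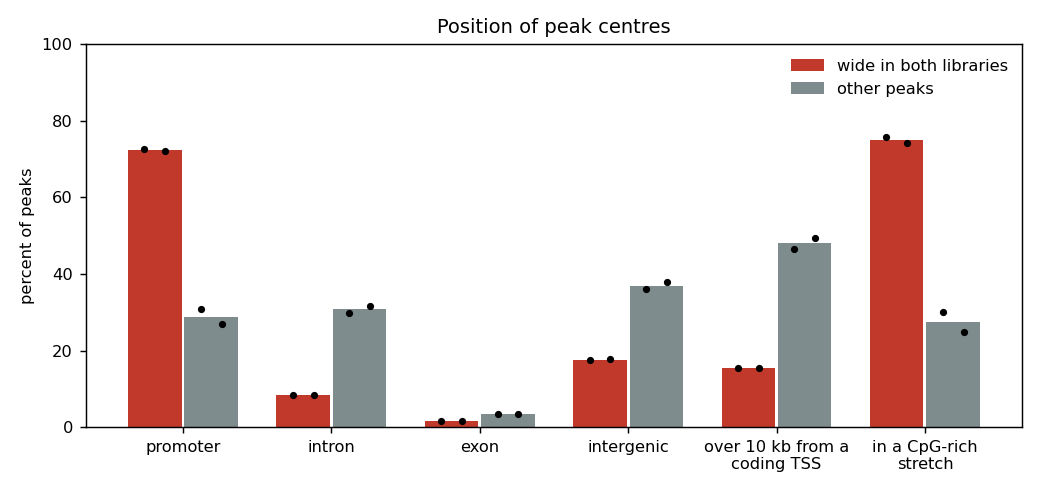
Percent of peaks whose centre lies in each annotation class, for wide peaks and other peaks; bars are means and dots are the 2 libraries. Wide peaks stand at 72.3% in promoters against 28.9% of other peaks, and at 75.1% in CpG-rich stretches against 27.4%.

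Signal differed between the classes and is itself tied to promoters, so the shares were also read within signal levels. Median signal was 1.19 in wide peaks and 0.819 in other peaks of replicate 1, and 1.18 in wide peaks and 0.760 in other peaks of replicate 2. The highest quintile of signal held 29.9% ± 0.49 of wide peaks and 19.9% ± 0.04 of other peaks. It held 17.5% ± 3.75 of peaks wide in 1 library only, so the excess was not shared by all peaks of 400 bp or more. Within that quintile, promoters made up 78.5% ± 1.17 of wide peaks and 60.3% ± 8.79 of other peaks. Peaks wide in 1 library only matched the wide peaks there, at 78.5% ± 1.91. In the middle quintile promoters made up 75.2% of wide against 23.1% of other peaks in replicate 1, and 74.8% against 22.1% in replicate 2. In each library the gap to other peaks was smaller in the highest quintile than in the middle one.

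Around the TSS, wide promoter peaks reached further in both directions and more so into the gene. With positions counted along the gene and negative upstream of the TSS, their median edges lay at -213.5 bp and 282 bp in replicate 1, and at -215 bp and 284 bp in replicate 2. The edges of other promoter peaks lay at -128 bp and 97 bp in replicate 1, and at -126 bp and 96 bp in replicate 2. The centre was downstream of the TSS in 56.7% ± 0.12 of wide and 43.4% ± 0.52 of other promoter peaks, and in 62.6% ± 0.11 of promoter peaks wide in 1 library only. The TSS itself was covered by 63.9% of wide and 50.7% of other promoter peaks in replicate 1, and by 61.9% of wide and 45.7% of other promoter peaks in replicate 2. Reach and coverage are bound to width, which the rule used. The centre is the midpoint of the edges, so it shifts when added width lies mainly downstream, and it is not independent of them. Promoters shared by 2 genes on opposite strands were no more common among the wide ones, at 6.77% ± 0.12 of wide and 8.21% ± 0.29 of other promoter peaks.

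**Figure D3:**
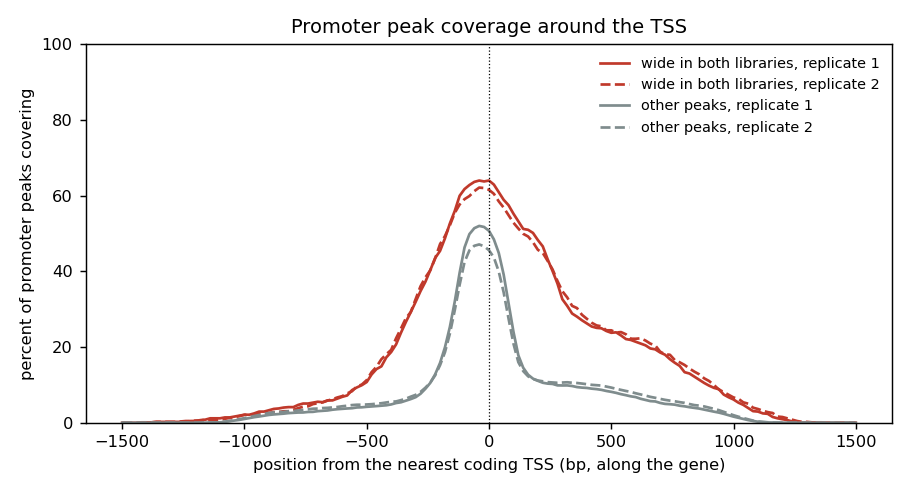
Percent of promoter peaks that cover each position around the nearest coding TSS, read along the gene, for wide and other peaks in each library. The wide curves extend further on both sides, with a shoulder downstream of the TSS.

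Wide peaks sat in CpG-rich DNA. A CpG-rich stretch joins 200 bp windows with at least 50% G and C and a CpG observed-over-expected ratio of at least 0.6, and the ratio compares the CpGs present with those that the C and G content predicts. The centre lay in such a stretch in 75.1% ± 1.08 of wide and 27.4% ± 3.63 of other peaks, and in 61.0% ± 5.63 of those wide in 1 library only. At promoters this was 88.3% ± 0.69 of wide against 70.7% ± 3.73 of other peaks, and away from promoters 40.7% ± 1.53 of wide against 9.76% ± 1.27 of other peaks. The median CpG ratio of wide promoter peaks was 0.788 in replicate 1 and 0.778 in replicate 2, against 0.722 and 0.682 in other promoter peaks. Away from promoters it was 0.408 and 0.405 in wide peaks, against 0.249 and 0.235 in other peaks. Over all peaks the difference in the median was 0.405 ± 0.013 (SD, n = 2), larger than within either position class. Between wide peaks of all signal levels and other peaks of the highest signal quintile it was 0.054 ± 0.076. Those sides were not matched for signal.

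The stretch around wide promoter peaks was also longer. Its median length was 1240 bp in replicate 1 and 1220 bp in replicate 2, against 800 bp and 740 bp around other promoter peaks. A stretch of 1 kb or more surrounded 63.0% ± 0.31 of wide and 36.5% ± 2.13 of other promoter peaks. It surrounded 56.8% ± 4.05 of promoter peaks wide in 1 library only. Promoter peaks of 300 bp to under 400 bp had a median stretch of 1080 bp in replicate 1 and 1000 bp in replicate 2, so long stretches were not particular to the members. Over all promoter peaks the median stretch was 340 bp in replicate 1 and 200 bp in replicate 2 for peaks under 100 bp, and 1480 bp and 1350 bp for peaks of at least 800 bp. Within the members, Spearman's rho of width and stretch length was only 0.21 in replicate 1 and 0.11 in replicate 2. The stretch and the peak share the same DNA. The median stretch at the widest bin rests on 60 promoter peaks in replicate 1 and 56 in replicate 2. The share of promoters there rests on all its peaks, 72 in replicate 1 and 85 in replicate 2.

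**Figure D4:**
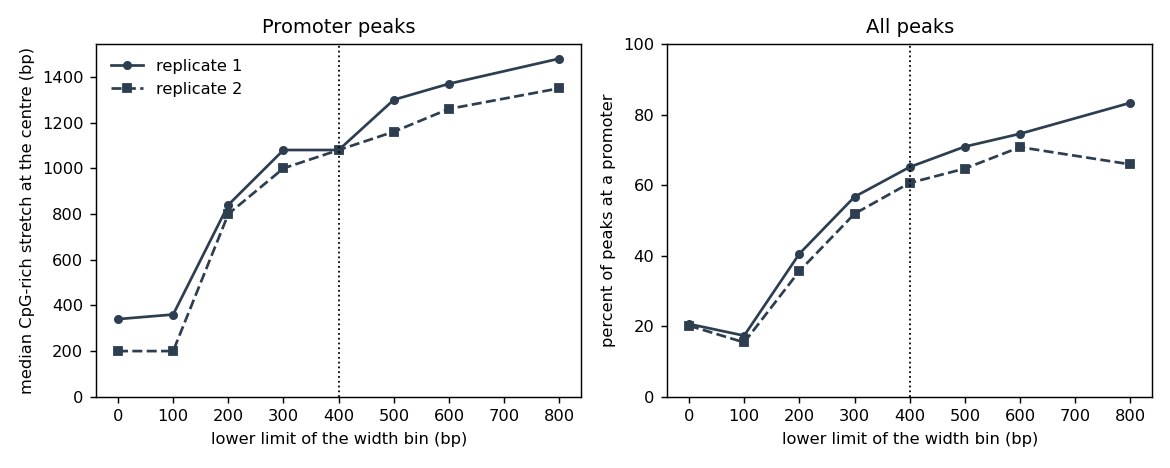
Median length of the CpG-rich stretch at promoter peaks (left) and percent of all peaks at promoters (right) by peak width, for each library; the dotted line marks 400 bp. Both measures are higher at 400 bp than at 100 bp in each library, and the change has no step at the limit.

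Of the 1107 regions, 802 lay at promoters, 106 elsewhere in genes and 199 between genes, by the centre of the joint span. Ranked by the mean over libraries of the widest peak, the first region was at Pparg, the nuclear receptor that directs fat-cell formation and takes part in urothelial differentiation. It spanned chr6:115360781-115361920, and its widest peak measured 944 bp in replicate 1 and 1140 bp in replicate 2, with 6 footprints in each. The highest signal among its members was 1.00 in replicate 1 and 1.06 in replicate 2. The Tmem229a region on chromosome 6 followed closely with 1180 bp and 900 bp, and its joint span of 1700 bp was the longest of all. The widest single peak, 1240 bp, was at Cdk6 in replicate 1. The region upstream of Actg1, which encodes cytoplasmic gamma-actin, had 1059 bp and 940 bp at chr11:120348922-120350060. Its CpG ratio of 0.427 ± 0.036 (SD, n = 2) was well below the promoter median. Zfp503, a zinc-finger regulator gene, had the widest region outside promoters, 6.61 kb from its TSS, with 716 bp in replicate 1 and 1176 bp in replicate 2.

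The other regions among the 10 widest were at the promoters of Jade2, Cdk6, Traf3ip2, Smarca2, Mgll and 1190002N15Rik. Cdk6 encodes a kinase of the G1 phase of the cell cycle, Traf3ip2 an adaptor of the interleukin 17 receptor, and Smarca2 an ATPase of the SWI/SNF chromatin remodeller. Smarca2 had peaks of 1180 bp in replicate 1 and 660 bp in replicate 2, and Cdk6 had 1240 bp and 620 bp. The Traf3ip2 peaks were nearly equal, at 960 bp in replicate 1 and 900 bp in replicate 2, and they lay in no CpG-rich stretch. The widest regions were of ordinary height. Signal was 0.640 and 0.530 at Tmem229a and 1.72 and 2.24 at Traf3ip2 in replicates 1 and 2, the lowest and highest pairs of the 10.

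The tallest wide regions were not the widest, with mean widths of 400 bp to 540 bp among the 10 tallest. Signal was 39.1 in replicate 1 and 34.0 in replicate 2 at chr15:99735661-99736060, inside Cers5, a ceramide synthase gene, and 10.2 kb from the TSS of Cox14. This region was exactly 400 bp wide in both libraries and had a CpG ratio of 0.084, and it held 0 footprints in replicate 1 and 4 in replicate 2. Its signal stood far above that of the next region, within the clock repressor gene Nr1d1, with 14.1 and 12.3. Hspa8, the constitutive Hsp70 chaperone, had 11.8 and 11.4 at a promoter peak of 420 bp in both libraries. Per1, a core gene of the circadian clock, had 11.3 and 10.2 at peaks of 520 bp and 500 bp. Hspa2, Rab40c, Map3k14, P4hb, Ap2a1 and the shared promoter of Jkamp and L3hypdh completed the 10 tallest, all at promoters.

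In the 5 regions with the largest width difference in each direction, the libraries differed by 480 bp to 734 bp. The Nrp1 promoter, of a receptor for semaphorins and VEGF, had a peak of 400 bp in replicate 1 and 1020 bp in replicate 2. Gas1, a hedgehog co-receptor gene, had 580 bp and 1160 bp, and Wnt5a, a signalling ligand gene, had 444 bp and 980 bp. An intergenic region 28.1 kb from the TSS of Dock9 was wider in replicate 2 by 520 bp, and the Ica1 promoter region by 500 bp. In the other direction Ppp2r3d had 1134 bp in replicate 1 and 400 bp in replicate 2, and Cdk17 had 965 bp and 400 bp. Irf2, a transcription factor gene of the interferon system, had 1000 bp and 520 bp. Signal at Nrp1 was 0.929 in replicate 1 and 1.01 in replicate 2, so the height there differed little while the width differed by 620 bp. The promoter of Aox1 had peaks of exactly 400 bp in both libraries, as did intergenic regions 7.95 kb from Optc, 20.2 kb from Desi2 and 4.76 kb from Rpl12.

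Footprints were more numerous in wide peaks but less dense. At least 6 footprints lay in 34.5% ± 0.93 of wide and 3.41% ± 0.52 of other peaks. None lay in 19.9% ± 1.82 of wide and 23.5% ± 0.55 of other peaks. Per 100 bp, wide promoter peaks had 0.807 footprints in replicate 1 and 0.816 in replicate 2, against 1.13 and 1.09 in other promoter peaks. Away from promoters the densities were 0.838 and 0.835 in wide peaks, against 0.904 and 0.914 in other peaks. Averaged per peak, the density was 0.834 and 0.851 in wide peaks and lower, 0.762 and 0.669, in those wide in 1 library only. Density did not simply fall with width. Over all peaks it was 0.564 and 0.526 under 100 bp, and 1.13 and 1.11 at 200 bp to under 300 bp. In the highest quintile of signal the density was 1.49 in wide and 1.60 in other peaks of replicate 1, and 1.48 in wide and 1.66 in other peaks of replicate 2. The gap was larger in the middle quintile, with 0.461 in wide and 0.837 in other peaks of replicate 1, and 0.448 and 0.833 in replicate 2. The most footprints lay at Wipi1, an autophagy gene, with 16 in replicate 1 and 19 in replicate 2. Clec11a had 15 and 16, the imprinted gene Peg3 13 and 17, the kinase gene Gsk3b 17 and 13, and the corepressor gene Sin3a 15 and 13. Klf4 had 7 footprints in replicate 1 and 0 in replicate 2, although its peaks were 780 bp and 840 bp wide.

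Gene lists were read against all coding genes. A wide region lay within 1 kb of a TSS for 822 of 20780 protein-coding genes (3.96%). Any peak lay there in both libraries for 13599 (65.4%), and 6.04% of those genes had a wide region. Of the lists for cell types, 24 of 25 urothelium genes, 18 of 24 smooth muscle genes and 21 of 24 fibroblast and matrix genes had a promoter peak in both libraries. This was so for 11 of 18 endothelium genes, 6 of 20 immune cell genes, 4 of 16 hepatocyte genes and 7 of 13 neuron genes.

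Immediate early genes, which respond to a stimulus before new proteins are made, had a wide region at 6 of 28 promoters (21.4%), all 28 of which had a promoter peak in both libraries. Peaks at Klf4, a zinc-finger factor gene, were 780 bp in replicate 1 and 840 bp in replicate 2. Rhob, a small GTPase gene, had 780 bp and 600 bp. Klf10 had 640 bp and 680 bp, with a signal of 7.48 and 6.27 and 14 footprints in each library. Fos, a subunit of AP-1, had 560 bp and 500 bp, Ier2 460 bp and 636 bp, and Myc 440 bp in both. Atf3 and Egr1 had none, and their widest promoter peaks were 300 bp and 240 bp in replicate 1 and 260 bp and 280 bp in replicate 2. Dusp1, a phosphatase gene, had a peak of 420 bp in replicate 1 and another of 680 bp in replicate 2 that did not overlap, and so was not a member.

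The lists for urothelium (4.00%) and for fibroblasts and matrix (4.17%) were near the 3.96% of all coding genes. Pparg was the only one of 25 urothelium genes with a wide region. Cdh1, the epithelial cadherin, had peaks of 240 bp in both libraries, and Elf3, an epithelial ETS factor gene, had 400 bp in replicate 1 and 160 bp in replicate 2. Of 24 smooth muscle genes, Synm, an intermediate filament gene, had 520 bp in replicate 1 and 475 bp in replicate 2, and Actn1, an actin crosslinker gene, had 400 bp and 440 bp. Acta2, the smooth muscle actin, had only 123 bp and 99 bp. Of 24 fibroblast and matrix genes, Gas1 alone was wide, and Col1a1 and Col3a1, fibrillar collagen genes, had 220 bp and 200 bp in replicate 1 and 200 bp and 180 bp in replicate 2. No gene of the endothelium (18), immune cell (20), germ cell (16), hepatocyte (16) or neuron (13) lists, and none of 22 long noncoding RNA genes, had a wide region. In the order of the first 5 lists, 11, 6, 4, 4 and 7 of their genes had a promoter peak in both libraries. Of all coding genes with such a peak 6.04% had a wide region, so counts of 0 are near the background.

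Genes active in most cells also varied. Of 73 cytosolic ribosomal protein genes, all with a promoter peak in both libraries, only Rps23 had a wide region (1.37%), with 440 bp in replicate 1 and 420 bp in replicate 2. Rpl11 and Fau had 220 bp in both libraries, although signal at Fau reached 7.66 and 7.38. Of 22 housekeeping genes, Ldha, a glycolytic enzyme gene, and Oaz1, which limits polyamine synthesis, were wide. Actb, the beta-actin gene, fell just short with 380 bp and 360 bp. Hspa8 was the only wide one of 17 heat shock and chaperone genes, and Rora and Per1 were the wide ones of 19 clock genes. Of 39 Hox genes, which pattern the body axis, Hoxa7 had 551 bp and 760 bp with a signal of 0.375 and 0.486. Hoxd3 and Hoxd4 shared a region. With 1 to 3 wide genes in each of these lists, 1 gene more or less changes a list's share greatly.

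Wide regions far from the start of a coding gene were mixed in composition. Of 173 regions over 10 kb from a coding TSS, 36 lay inside a coding gene, 51 lay in a CpG-rich stretch in both libraries, 113 in none in either, and 25 within 1 kb of some other annotated TSS. The median distance was 44.7 kb. The widest was at chr17:83276081-83276920, 55.5 kb from the TSS of Pkdcc, with peaks of 780 bp in replicate 1 and 820 bp in replicate 2 and a CpG ratio of 0.783 ± 0.023 (SD, n = 2). A region at chr9:96437584-96438812, 40.4 kb from Rnf7, lay 60 bp from the TSS of the noncoding gene BC043934 and had 724 bp and 800 bp. The region 98.1 kb from Neo1, at chr9:59134121-59134959, had 752 bp and 760 bp, with a CpG ratio of only 0.289 ± 0.012. Those near Capzb and Adarb1 had CpG ratios of 0.293 and 0.314. Median signal was 1.16 in the distal and 1.23 in the promoter regions, and median width was 470 bp and 497.5 bp.

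The central 150 bp of each peak was searched for 33 short motifs on both strands, and the share of windows with a match was compared between wide peaks and other peaks in the same position class. A match is a run of letters, not a bound site. At promoters, 24 motifs were less frequent in wide than in other peaks in both libraries and 6 were more frequent. NFY, CCAAT, was in 15.4% of wide windows in both libraries, against 20.4% of other windows in replicate 1 and 20.1% in replicate 2. ETS, CCGGAAG, was in 4.37% and 4.23% of wide windows, against 8.12% and 7.20% of other windows. AP-1, TGANTCA, was in 2.25% and 1.53% of wide windows, against 4.61% and 4.64% of other windows. The 3 lowest ratios belonged to rare words. CREB, TGACGTCA, matched 0 wide windows in replicate 1 and 1 in replicate 2, against 1.80% and 1.62% of other windows, NRF1, GCGCATGCG, matched 3 and 4, and RFX, GTTGCCATG, matched 1 in each.

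The motifs more frequent at wide promoters were TFAP2, 2 KLF words, HIF, TEAD and MEF2. TFAP2, GCCNNNGGC, was in 17.8% and 18.3% of wide windows in replicates 1 and 2, against 15.4% and 13.9% of other windows. The KLF word CCACCC was in 26.0% and 26.3% of wide windows, against 22.4% and 21.0% of other windows. The HIF core TACGTG was in 2.48% and 2.46% of wide windows, 21 windows in each library, against 1.70% of other windows in both. TEAD, GGAATG, was in 6.62% and 7.28% of wide windows, against 6.06% and 6.49% of other windows, but in central windows of 300 bp it was not higher in both libraries. MEF2, TATTTATAG, matched only 1 wide window in each library. The SP/KLF word GGGCGG, the sixth, was nearly level, with 43.4% and 40.1% of wide windows against 43.0% and 38.5% of other windows.

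Away from promoters the G- and C-rich words stood further apart. GGGCGG was in 20.6% and 19.3% of wide windows in replicates 1 and 2, against 8.90% and 7.37% of other windows. E2F, TTCCCGC, was in 3.74% and 3.02% of wide windows, against 1.01% and 0.881% of other windows, and CCACCC was in 25.9% and 23.6% against 16.9% and 14.7%. ETS matched only 10 and 5 wide windows, and TFAP2 was in 10.3% and 10.9% of wide against 7.29% and 6.45% of other windows. AP-1 ran the other way, with 6.23% and 5.44% of wide windows against 16.4% and 14.7% of other windows. The CTCF core CCACNAGG was in 2.80% and 2.12% of wide windows, against 7.12% and 7.08% of other windows. Hox, TAATTA, matched 2 and 1 wide windows, and CREB and ZBTB33, CTCGCGAGA, matched none. Of the 33 motifs, 9 were more and 17 less frequent in both libraries. Away from promoters these counts were 12 and 17 around the base of lowest false discovery rate, 14 and 16 per kb of whole peak, and 6 and 13 for the central window of peaks in no CpG-rich stretch. The base with the lowest false discovery rate lay a median of 85 bp from the centre of wide and 16 bp from that of other peaks in replicate 1, and 88 bp and 16 bp in replicate 2. With windows around that base instead, 6 promoter motifs were more and 23 less frequent in wide peaks in both libraries. Per kb of whole peak these counts were 7 and 25. Among promoter peaks in a CpG-rich stretch they were 5 and 24 for the central window. These alternative readings were chosen after seeing the data. MEF2 and TEAD at promoters were not higher in both libraries around the base of lowest false discovery rate, nor per kb of whole peak.

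**Figure D5:**
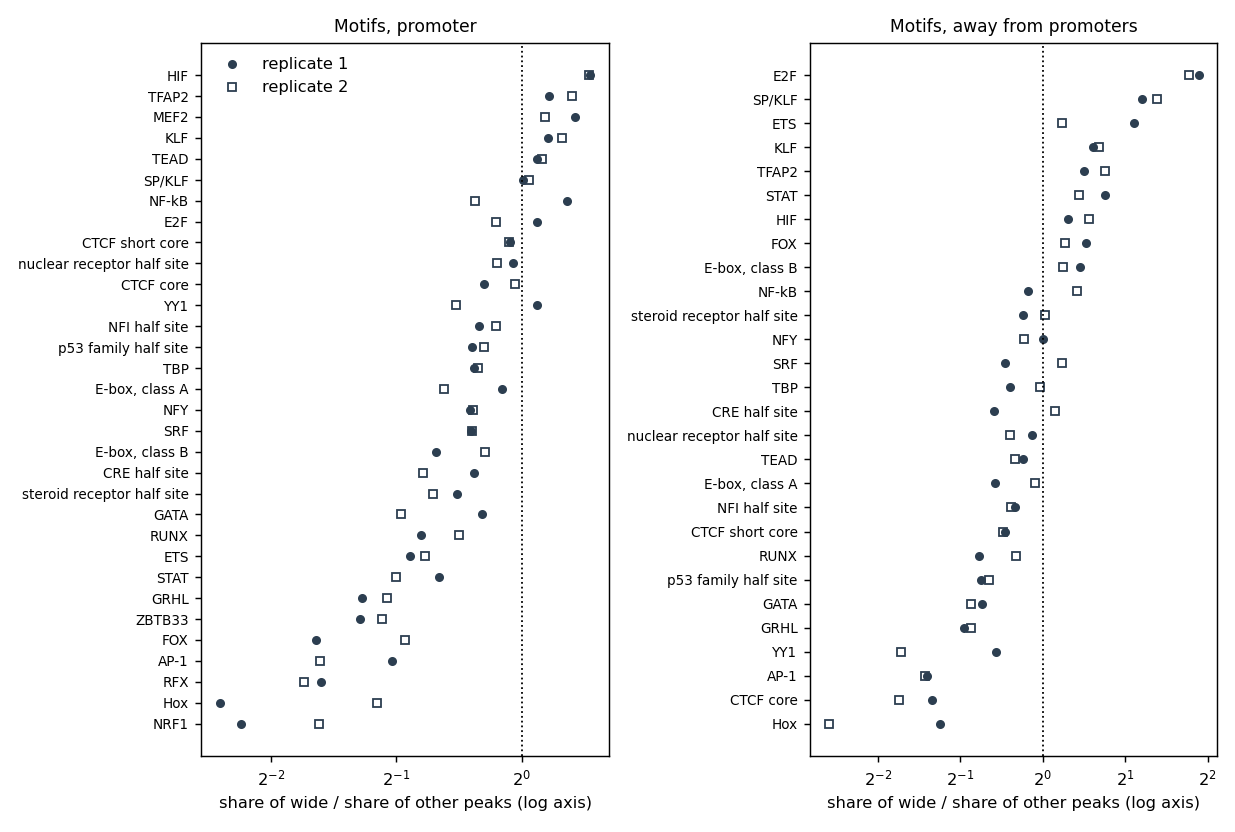
Share of wide peaks divided by share of other peaks with a match in the central 150 bp, for each motif with a match among wide peaks in both libraries (log axis; the dotted line marks equal shares). At promoters most motifs lie left of the line; away from promoters E2F and SP/KLF lie furthest right and Hox furthest left.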

How the data were processed

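DNase-seq peak lists, footprints and cut-rate stretches were deposited by the authors per library, on mm10 per the labels, and none was pooled per the deposited file listings. Aligner and callers: not given in the sources used here. The deposited peak signal is scaled by 1 factor per library. The deposited cut-rate false discovery rates and the footprint value, 0.01 in every row, are on the p-value scale. Total depth is unknown. The longer peak list of each library was used, and 87.7% of member widths in replicate 1 and 90.1% in replicate 2 were multiples of 20 bp. Positions came from GENCODE M21 and peak sequence from the GRCm38.p6 genome, whose chromosomes are those of mm10. A footprint counted for a peak that held its centre. The widest member stands for a region in each library, except that signal is the highest among its members there. Values are means and SD over 2 libraries. Members, 15 gene lists (376 of 381 genes found on the autosomes) and 33 motifs were chosen with earlier results of these data known.

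Named regions were the 10 widest, the 10 tallest, the 5 widest distal, the 5 with most footprints, 5 just above the limit and 5 with the largest width difference in each direction. Named genes were, per list, up to 4 wide and up to 4 without a wide region, and not all of these are printed. A region that the rule takes is not reported here. Named motifs had the 5 largest and 3 smallest ratios. AP-1, the CTCF core, and NFY and ETS at promoters were added after their values were seen, as were Fos, Myc and the measure of CpG-rich stretches. Membership was tested on simulated data. Python 3.11.15, numpy 2.4.6 and pandas 2.3.3 were used.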

Additional observations from a re-analysis of the deposited data

How the results depend on the processing

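No paired analysis was possible because the series holds 1 group and no result comes from a test between groups. The number of regions was 4204 with a minimum of 300 bp, 305 with 500 bp and 586 in the shorter list, and 2709 to 3445 in 1 library alone with no partner required. List genes with a wide region, 19 in all, were 64 at 300 bp, 9 at 500 bp and 40 to 45 in 1 library. The 173 distal regions were 946, 37 and 538 to 799. The excess of promoters in wide peaks, 43.4 percentage points, was 37.8 at 300 bp, 47.2 at 500 bp, 34.6 with a TSS within 500 bp, 36.6 to 37.7 in 1 library and 12.0 against other peaks of the highest quintile of signal. The excess of median CpG ratio, 0.405, was 0.371 at 300 bp, 0.439 at 500 bp, 0.383 in the central 150 bp, 0.342 to 0.366 in 1 library and 0.054 ± 0.076 (SD, n = 2) against the highest quintile. It was 0.081 at promoters and 0.164 away from them, a split chosen after seeing the data. The difference in footprints per 100 bp, -0.159, was -0.057 at 300 bp, -0.242 at 500 bp, -0.275 to -0.222 in 1 library and -0.816 against the highest quintile. In each reading against the highest quintile, only the other peaks were limited to it, and wide peaks of all signal levels stayed. Those readings are therefore not matched for signal. Pairs within 100 bp, 73.2%, were 78.1% away from promoters. The cause of these shifts was not tested, and no direction reversed. The count of promoter motifs less frequent in wide peaks, 24, stayed between 23 and 29 under 9 alternatives, 3 of them chosen after seeing the data.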

Other observations

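Genes with a wide promoter region were longer than others. Their median length was 42.3 kb, against 24.5 kb for genes with a promoter peak in both libraries and none wide and 17.6 kb for all coding genes. They had 6.19 annotated TSSs on average, against 5.34 and 4.34 in the same classes. The median number of TSSs was 5 with a wide region, 5 with a promoter peak and none wide, and 3 over all coding genes. Wide regions were spread over every autosome, at 7.66 regions per 1000 peaks on chromosome 19 and 14.0 on chromosome 13, the lowest and highest values.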
